A study of Homo sapiens with 24 samples.

Results

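The genes of telomerase and shelterin, 10 in number and with the helicase RTEL1 among them, were followed across all 8 groups of the RNA-seq data. They are TERT, TERC, DKC1, RTEL1, TERF1, TERF2, TERF2IP, POT1, TINF2 and ACD, and they were chosen by name from the 57736 gene IDs of the count table, so that all 10 were found. The data come from U87-T, a U87 glioblastoma line that carries a TERT transgene from the vector pBabe-Lox-TERT-Lox. The methods name the transgene for U87-T, the line from which the KO clones were derived, and for the control cells. Whether the KO clones kept it at the same level was not tested. There are 2 series, named DAXX and ATRX, and each has WT cells, which received an empty Cas9 vector, and KO cells, with 3 libraries of control cells (labelled untreated) and 3 libraries of cells given etoposide, a topoisomerase II inhibitor that breaks DNA. DAXX_KO and ATRX_KO are each 1 single-cell clone with ALT features, so that the knockout and the clone cannot be told apart. The dose and time of etoposide for these libraries are not given in the sources used here. The comparisons ask whether the knockouts changed these genes, whether etoposide did, and whether the response to etoposide differed between KO and WT.

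Telomeres shorten with each round of replication, and most cancers keep them either with telomerase or by ALT, a recombination route often seen where ATRX or DAXX is lost. Telomerase holds TERT, the reverse transcriptase, TERC, the RNA that carries the template, and DKC1 (dyskerin), the pseudouridine synthase that binds and stabilises TERC. Shelterin covers the telomere: TERF1 and TERF2 bind double-stranded repeats, TERF2IP (RAP1) joins TERF2, TINF2 (TIN2) bridges the complex, and ACD (TPP1) with POT1 binds the single-stranded end and recruits telomerase. RTEL1 is a helicase that unwinds telomere loops.

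TERC is read by QuantSeq, a method that primes from poly(A) tails and counts the 3′ ends of transcripts, although the mature RNA has no such tail. The first 100 bases of its 541-base transcript are shown because they hold the template that TERT copies into telomere repeats, written as DNA with the 11 template bases (positions 46 to 56, the 1 match of this run in the transcript) in capitals.
TERC: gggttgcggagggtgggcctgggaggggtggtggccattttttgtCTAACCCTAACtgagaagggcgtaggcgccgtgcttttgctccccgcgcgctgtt
The longest run of A inside the TERC transcript was 6 bases, from position 171. What the TERC reads were primed from was not tested.

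The libraries held 6928950 to 13298557 counts each. Levels are given in CPM, counts scaled to library size by TMM over all 24 libraries. A library without a count could still hold up to 3, worth 0.215 to 0.407 CPM, a limit that covers counting error only. In control cells, DAXX mRNA was 34.5 ± 1.27 CPM (SD, n = 3) in WT of its series and 5.93 ± 1.08 in DAXX_KO, and ATRX mRNA was 189.7 ± 5.08 in WT and 79.4 ± 5.74 in ATRX_KO. DAXX mRNA was thus 5.79-fold lower in DAXX_KO control cells, but only 2.18-fold lower than in WT with etoposide. ATRX mRNA was 2.38-fold and 2.49-fold lower in ATRX_KO. In DAXX_KO the labels' genotype tag names ATRX, but ATRX mRNA in its control cells was 393 ± 26.6 CPM, above its WT, and the titles were followed. VIM, a mesenchymal filament gene of this line, was at 5803 ± 294.6 CPM in WT control cells of the DAXX series. GFAP, an astrocyte marker, had 0 to 6 counts and CDKN2A, which U87 lacks, 0 to 9 counts per library. Other genes of the same marker lists had more counts. Of 10 markers of other cell types, the filter on low counts kept 5 (DAXX series) or 7 (ATRX series). Of CDKN2A and MTAP, both listed as deleted in U87, it kept 1 per series. For the gene kept, the log2 fold change with etoposide was 0.29 in DAXX-series WT and 1.54 in ATRX-series WT. The study states biological replication for its experiments in general, but the labels do not say how the libraries of a group were cultured, so p-values measure the spread between these samples only.

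In control cells, TERT, DKC1, TERF2, TERF2IP and ACD were lower and TERC was higher in DAXX_KO than in WT, which is 6 of 10 genes at an FDR of 5% (edgeR quasi-likelihood test, Benjamini-Hochberg adjustment over all genes), beside 53.4% of all genes tested. In ATRX_KO, TERF2 and ACD were lower and TINF2 was higher, 3 of 10 genes beside 41.8% of all genes. With etoposide, 8 of 10 genes differed between DAXX_KO and WT (53.0% of all genes) and 6 of 10 between ATRX_KO and WT (45.9% of all genes). About as large a share of all genes as of these genes changed in control cells, so the counts by themselves are not a result about telomere genes. The median log2 fold change of the 10 genes in control cells was −0.22 in DAXX_KO and −0.15 in ATRX_KO, against 0.02 over all genes in each. With etoposide it was 0.16 and 0.22, against 0.01 over all genes.

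**Figure D1:**
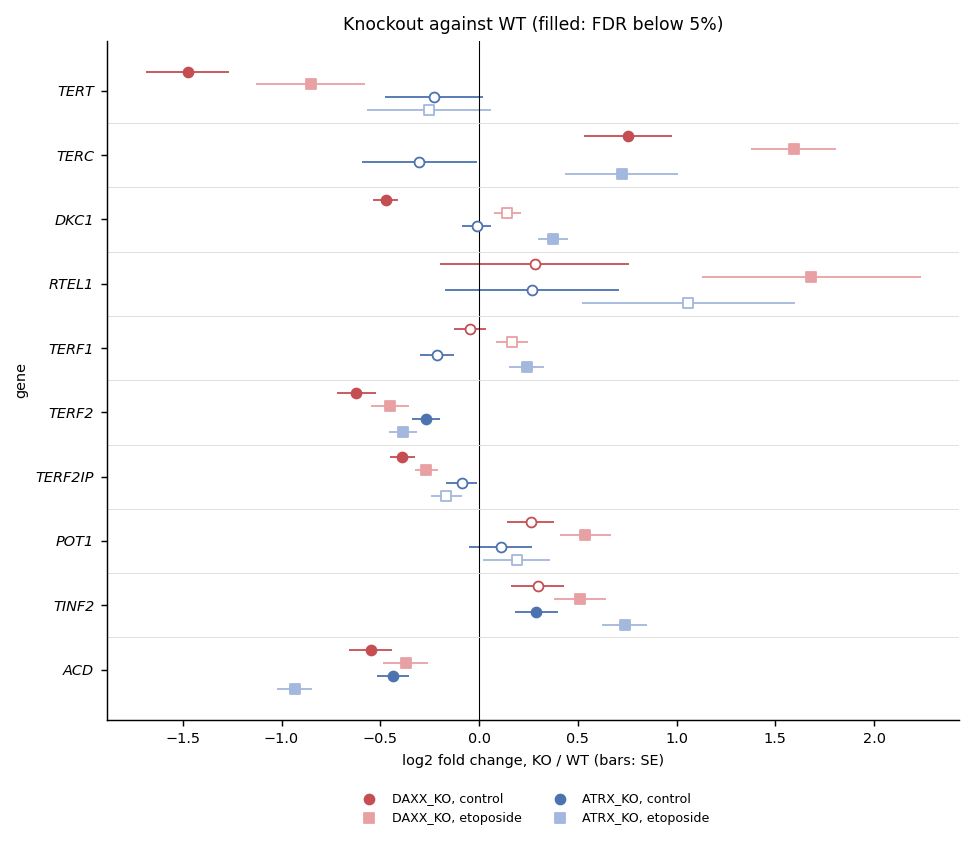
Log2 fold change of KO against WT (x axis, with bars of 1 SE) for each of the 10 genes (y axis), in control cells (circles) and with etoposide (squares), for DAXX_KO in red and ATRX_KO in blue, with filled symbols for an FDR below 5%. TERT in DAXX_KO control cells sits farthest to the left at −1.48, while TERF2 and ACD lie left of 0 with filled symbols in all 4 comparisons.

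Etoposide changed 6 of 10 in WT cells of the DAXX series (60.2% of all genes), 9 of 10 in WT cells of the ATRX series (61.5%), 7 of 10 in DAXX_KO (54.5%) and 7 of 10 in ATRX_KO (49.5%). The share of all genes was as large in WT of the DAXX series, and with 10 genes these counts too are not a result about telomere genes. TERT, DKC1, POT1 and ACD fell and TERF2IP rose in all 4 of these comparisons. TERC rose with etoposide in both knockouts, while its values in WT were 0.03 and −0.27 on the log2 scale. A response that differed between KO and WT, tested as an interaction, was called for 1 of 10 genes in DAXX_KO (14.2% of all genes) and 3 of 10 in ATRX_KO (16.0%).

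**Figure D2:**
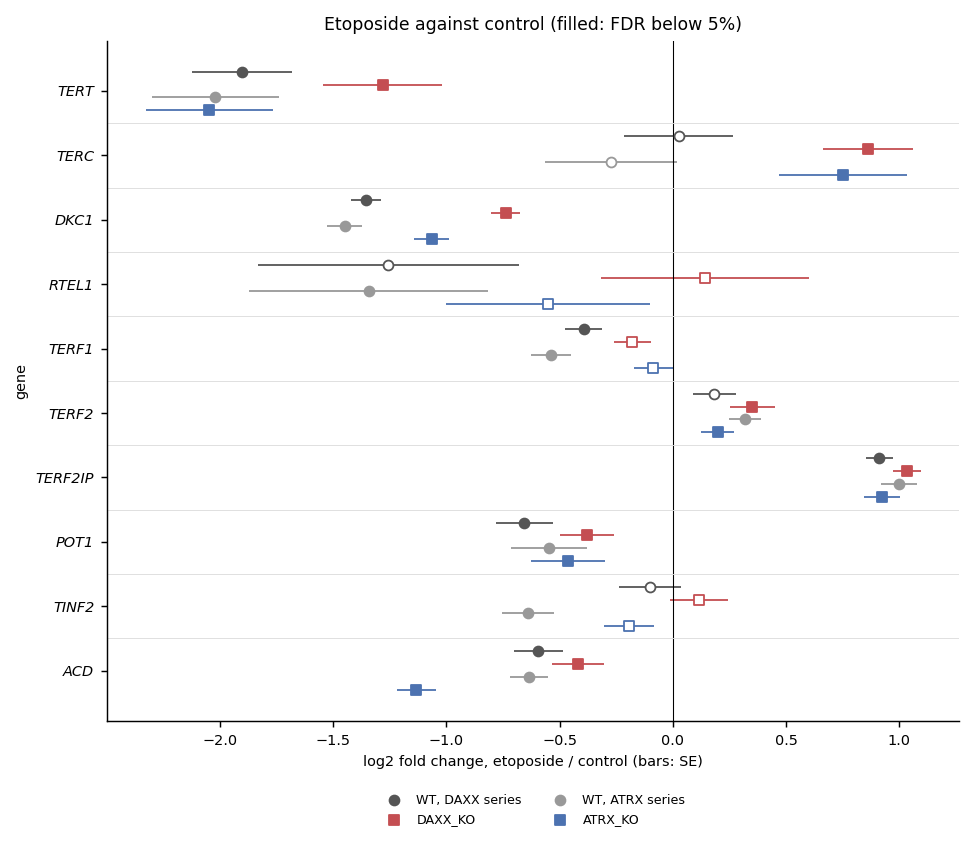
Log2 fold change of etoposide against control (x axis, with bars of 1 SE) for each gene (y axis) in WT cells (grey circles), DAXX_KO (red squares) and ATRX_KO (blue squares), with filled symbols for an FDR below 5%. TERF2IP lies between 0.91 and 1.03 in all 4 comparisons, and DKC1 lies nearer to 0 in both knockouts (−0.74 and −1.07) than in their WT cells (−1.36 and −1.45).

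**Figure D3:**
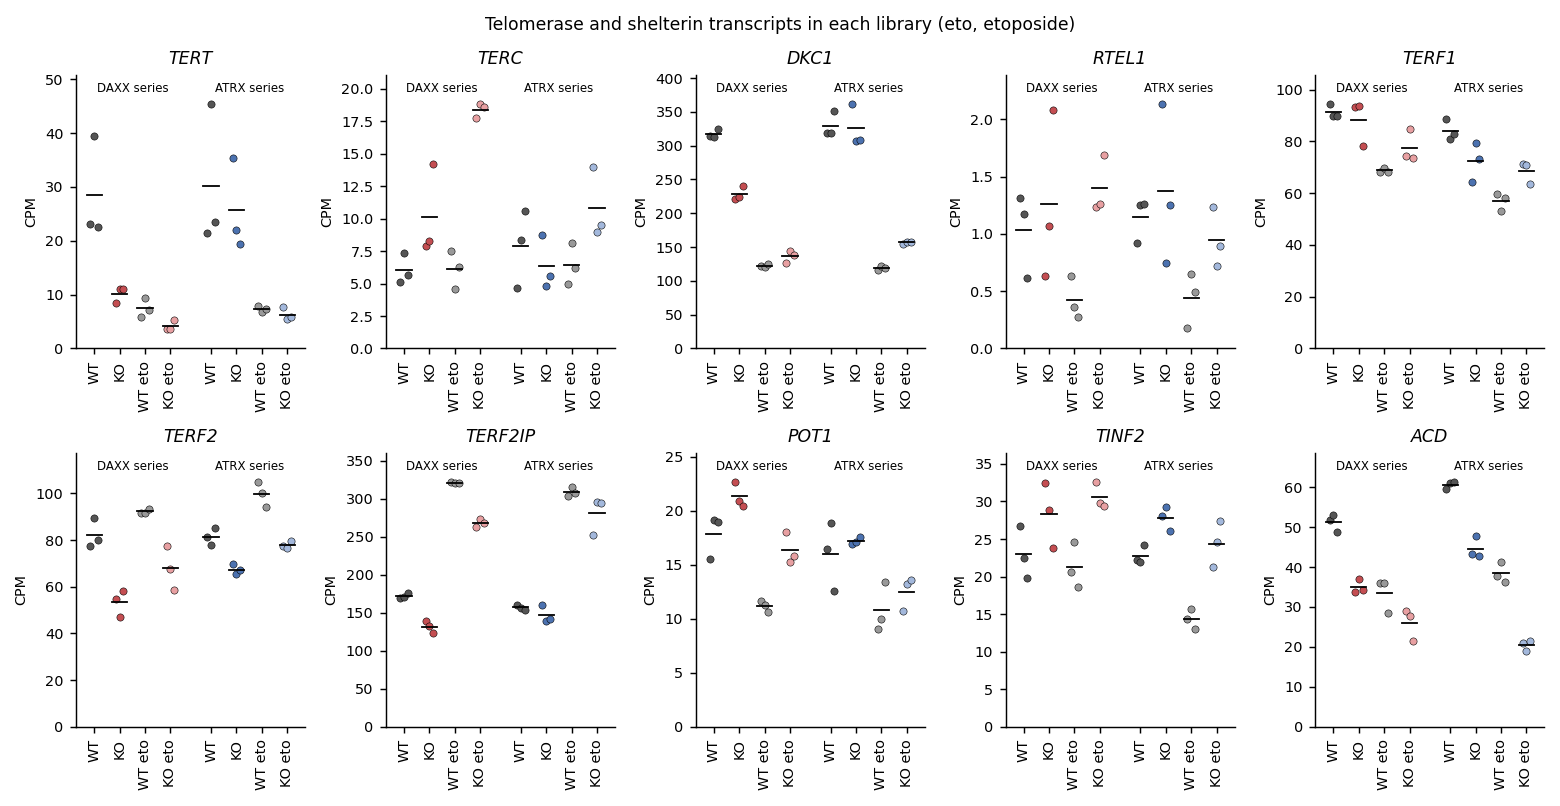
CPM (y axis, from 0, linear) of each gene in every library (points) with the group mean (line), for WT and KO, in control and with etoposide (eto), in the DAXX series on the left and the ATRX series on the right of each panel. TERC in DAXX_KO with etoposide (18.4 ± 0.572 CPM) stands above every library of the other 7 groups, and TERT in all 4 etoposide groups stands below every WT control library.

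TERT was at 23.1, 39.5 and 22.6 CPM in the WT control libraries of the DAXX series (229, 337 and 185 counts). In DAXX_KO control libraries it was at 8.53, 11.0 and 11.0 CPM, all below the WT libraries. TERT was 2.78-fold lower with the DAXX knockout (log2 −1.48, SE 0.21, edgeR adjusted p = 7.98e-06). This call held when each library was left out in turn, between −1.61 and −1.17. In the ATRX series, TERT was at 21.4, 45.4 and 23.5 CPM in WT control libraries and 35.4, 22.1 and 19.4 CPM in ATRX_KO. These groups overlapped, and the log2 fold change of −0.23 (SE 0.25, edgeR adjusted p = 0.494) turned to 0.20 without WT replicate 2, the highest library. The effect of DAXX_KO on TERT was lower than that of ATRX_KO by a log2 difference of −1.25 (SE 0.36, edgeR adjusted p = 0.00923, a model of all 24 libraries).

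With etoposide, TERT was at 5.83, 9.35 and 7.20 CPM in WT of the DAXX series and 7.82, 6.79 and 7.26 CPM in WT of the ATRX series. Each of these libraries lay below every WT control library. TERT fell 3.75-fold in the first (log2 −1.91, SE 0.22, edgeR adjusted p = 3.61e-07) and 4.06-fold in the second (log2 −2.02, SE 0.28, edgeR adjusted p = 8.22e-06). In DAXX_KO it was at 3.58, 3.58 and 5.31 CPM with etoposide, a 2.43-fold fall from DAXX_KO control (edgeR adjusted p = 0.000379), and in ATRX_KO at 7.69, 5.38 and 5.76 CPM, a 4.13-fold fall (edgeR adjusted p = 1.29e-05). The 4 falls kept their calls in every alternative and without any single library. DAXX_KO was below WT with etoposide by −0.85 (SE 0.28, edgeR adjusted p = 0.0136), with all KO libraries below all WT libraries. That call was lost in the model of all 24 libraries (adjusted p = 0.0521) and without WT replicate 2 (−0.65, adjusted p = 0.092), KO replicate 1 (−0.76, adjusted p = 0.0541) or KO replicate 2 (−0.74, adjusted p = 0.0537). TERT counts from the gene on chromosome 5 (GRCh37, 1253262 to 1295183, minus strand, ENSG00000164362) and from the transgene cannot be told apart. Fewer cells with TERT and less TERT mRNA per cell cannot be told apart either, here or for the other genes.

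The order of TERT levels put the 3 control groups ATRX_WT (30.1 ± 13.3 CPM, SD, n = 3), DAXX_WT (28.4 ± 9.61) and ATRX_KO (25.6 ± 8.54) first, with overlapping libraries. DAXX_KO control (10.2 ± 1.43) followed without overlap, and then WT of the DAXX series, WT of the ATRX series and ATRX_KO with etoposide at 7.46 ± 1.77, 7.29 ± 0.519 and 6.28 ± 1.24. DAXX_KO with etoposide was last at 4.15 ± 0.996 CPM, below all libraries of the group before it.

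TERC (ENSG00000270141, chromosome 3, 169482308 to 169482848, minus strand) went the other way. It was at 5.15, 7.39 and 5.63 CPM in WT control libraries of the DAXX series (51, 63 and 46 counts) and at 7.89, 8.32 and 14.2 CPM in DAXX_KO (62, 62 and 116 counts). The groups did not overlap, but 1 KO library lay far above the other two. TERC was 1.69-fold higher in DAXX_KO (log2 0.75, SE 0.22, edgeR adjusted p = 0.00789), and without that library, KO replicate 3, the value was 0.43 (adjusted p = 0.101). With etoposide, TERC was at 7.47, 4.55 and 6.25 CPM in WT and 17.8, 18.9 and 18.6 CPM in DAXX_KO. The 3 KO libraries differed little among themselves, and TERC was 3.01-fold higher than in WT (log2 1.59, SE 0.21, edgeR adjusted p = 3.69e-06), a call that no alternative and no left-out library ended.

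In the ATRX series, TERC was at 4.69, 8.37 and 10.6 CPM in WT control libraries and 8.71, 4.80 and 5.57 CPM in ATRX_KO, which overlapped (log2 −0.30, SE 0.29, edgeR adjusted p = 0.435). With etoposide it was at 4.95, 8.09 and 6.18 CPM in WT and 14.0, 8.96 and 9.51 CPM in ATRX_KO, all KO libraries above all WT libraries. TERC was 1.65-fold higher in ATRX_KO with etoposide (log2 0.72, SE 0.29, edgeR adjusted p = 0.0485). This call was lost with the replicate block (adjusted p = 0.073), with DESeq2 (adjusted p = 0.0557) and without ATRX_KO replicate 1 (0.50, adjusted p = 0.187) or WT replicate 1 (0.59, adjusted p = 0.162) or 3 (0.73, adjusted p = 0.102). The rise of TERC with etoposide was 1.82-fold in DAXX_KO (edgeR adjusted p = 0.00108) and 1.68-fold in ATRX_KO (edgeR adjusted p = 0.0358), the latter lost with the block (adjusted p = 0.0533) and without ATRX_KO etoposide replicate 1 (0.53, adjusted p = 0.159) or control replicate 2 (0.58, adjusted p = 0.139) or 3 (0.66, adjusted p = 0.1). As an interaction, TERC missed the threshold in DAXX_KO (0.84, SE 0.31, edgeR adjusted p = 0.083) and in ATRX_KO (1.02, SE 0.41, edgeR adjusted p = 0.1). With no filter on low counts both interactions passed (adjusted p = 0.0258 and 0.00479), as did that of DAXX_KO without its control replicate 3 (1.16, adjusted p = 0.00831) and that of ATRX_KO without control replicate 1 of WT (1.29, adjusted p = 0.0302) or of ATRX_KO (1.31, adjusted p = 0.0444). In control cells the knockouts differed in their effect on TERC by 1.06 (SE 0.40, edgeR adjusted p = 0.0409), which was lost in 3 alternatives and 7 of 12 left-out libraries.

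Because TERC lacks a tail, 6 other short RNAs made without poly(A) were set beside it, a list chosen after the values of TERC were seen. With etoposide they were higher for 5 of 6 in WT of the DAXX series, 4 of 6 in WT of the ATRX series, 4 of 6 in DAXX_KO (1 lower) and 4 of 6 in ATRX_KO. Of all genes, 60.2%, 61.5%, 54.5% and 49.5% were called in either direction in these comparisons. Against WT with etoposide, 6 of 6 were lower in ATRX_KO, with a median of −1.07, beside 45.9% of all genes called. In DAXX_KO, where TERC was higher, 3 were lower and 1 higher, beside 53.0% of all genes called. With 6 RNAs, these counts are not a result about RNAs without a tail. RN7SK, the scaffold RNA of the P-TEFb inhibitor complex, rose with etoposide by 1.54 and 1.88 in the WT cells, where TERC was not called. RNU2-2P, of the same list, was called in neither WT (−0.02 and 0.01). SNORD3A was called higher in WT of the DAXX series (0.32) but was not called in WT of the ATRX series (−0.01). The part that RNA without a tail plays in the TERC values was not tested.

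DKC1 (ENSG00000130826, chromosome X, 153991017 to 154005964, plus strand) was measured with 921 to 4235 counts per library. It was at 313.8, 313.4 and 324.5 CPM in WT control libraries of the DAXX series and 220.5, 224.6 and 239.7 CPM in DAXX_KO. Every KO library lay below every WT library, and DKC1 was 1.39-fold lower (log2 −0.47, SE 0.06, edgeR adjusted p = 3.32e-06). It was at 318.6, 318.6 and 351.6 CPM in WT and 361.8, 306.7 and 308.4 CPM in ATRX_KO of the other series, with a log2 fold change of −0.01 (edgeR adjusted p = 0.918). The knockout effects differed by −0.46 (SE 0.09, edgeR adjusted p = 4e-04), a call that held in every alternative run.

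Etoposide brought DKC1 to 122.1, 120.8 and 125.1 CPM in WT of the DAXX series and 115.9, 121.5 and 118.9 CPM in WT of the ATRX series. These are falls of 2.56-fold (log2 −1.36, SE 0.07, edgeR adjusted p = 9.87e-13) and 2.73-fold (log2 −1.45, SE 0.08, edgeR adjusted p = 7.34e-11). In DAXX_KO with etoposide it was at 125.8, 143.7 and 138.8 CPM and in ATRX_KO at 154.6, 157.8 and 157.8 CPM. In each case these lay above all WT libraries of the series with etoposide. The fall was smaller in both knockouts, by 0.62 in DAXX_KO (SE 0.09, edgeR adjusted p = 0.000129) and by 0.39 in ATRX_KO (SE 0.11, edgeR adjusted p = 0.0226). The ATRX_KO interaction was lost without WT control replicate 3 (0.34, adjusted p = 0.0608). With etoposide, DKC1 was higher in ATRX_KO than in WT (0.37, SE 0.08, edgeR adjusted p = 0.000778), and in DAXX_KO its value was 0.14 (edgeR adjusted p = 0.0743). The DAXX_KO value passed with library totals (0.22, adjusted p = 0.0094) and without KO replicate 1 (0.20, adjusted p = 0.0224). The snoRNAs SNORA36A and SNORA56 lie within DKC1 and had 0 to 9 and 0 counts.

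The genes around DKC1 on chromosome X were mostly higher in DAXX_KO. The 30 nearest tested genes on each side were taken, or fewer where the chromosome ended sooner. Of the 44 around DKC1, 27 were higher and 1 was lower in DAXX_KO control cells, with a median log2 fold change of 0.48. No neighbour had a value below that of DKC1, which was 0.95 below their median. Neighbours were shifted upward around other members as well in DAXX_KO, with a median of 0.45 around RTEL1 (23 higher and 6 lower of 44), 0.35 around POT1 (25 and 9 of 60) and 0.26 around TINF2 (26 and 10 of 60), genes that themselves lay within 0.17 of those medians. Beside these counts, 53.4% of all genes were called in either direction in this comparison. The number called around POT1 and TINF2 was near that share, so it is not by itself a result about these regions. In ATRX_KO the neighbours of DKC1 had a median of 0.00. Around TERC the 60 neighbours had a median of −0.23 in DAXX_KO, 0.98 below TERC, and around TERT the 42 neighbours had a median of −0.16, with no neighbour below TERT. The copy number of these regions in the clones was not tested.

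The promoters of DKC1 and TERF2IP are shown as 1 gene that fell and 1 that rose with etoposide in all 4 comparisons and every alternative. The falls of TERT and ACD held as widely, but TERT counts can come from the transgene, which this promoter does not drive. They are the 250 bases before to 50 bases after the RefSeq gene start on GRCh38.p14, plus strand, with the GC box GGGCGG and its reverse complement CCGCCC in capitals (DKC1 at chrX:154762614-154762913, TERF2IP at chr16:75647523-75647822).
DKC1: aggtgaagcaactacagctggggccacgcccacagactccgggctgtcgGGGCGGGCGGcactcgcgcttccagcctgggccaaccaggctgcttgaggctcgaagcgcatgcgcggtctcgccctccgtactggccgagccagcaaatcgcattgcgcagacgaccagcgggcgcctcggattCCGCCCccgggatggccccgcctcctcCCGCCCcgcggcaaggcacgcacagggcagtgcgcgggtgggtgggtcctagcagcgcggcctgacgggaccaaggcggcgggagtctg
TERF2IP: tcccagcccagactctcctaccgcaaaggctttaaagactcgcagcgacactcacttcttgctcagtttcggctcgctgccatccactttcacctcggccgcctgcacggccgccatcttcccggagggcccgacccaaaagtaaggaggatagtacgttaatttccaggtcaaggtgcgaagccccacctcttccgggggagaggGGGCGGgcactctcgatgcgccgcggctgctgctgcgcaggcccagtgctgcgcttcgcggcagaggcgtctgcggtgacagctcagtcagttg
The DKC1 window held 4 matches, 2 of them overlapping, and the TERF2IP window 1. A GC box stands in 45.0% of the 35116 promoters of this length, and the E box CACGTG, found in 7.26% of them, was in neither window. Of the 10 genes, 7 had a promoter in the table, and among these the E box was found in TERT alone (1 match, with 3 GC boxes).

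TERF2IP (ENSG00000166848, chromosome 16, 75681671 to 75795770, plus strand) rose with etoposide in every line. It was at 169.9, 171.3 and 176.2 CPM in WT control libraries of the DAXX series and at 321.9, 320.2 and 320.7 CPM with etoposide. The WT libraries of the ATRX series went from 160.4, 156.9 and 153.6 CPM to 303.5, 315.6 and 308.0 CPM. The rise was 1.88-fold (log2 0.91, SE 0.06, edgeR adjusted p = 1.11e-10) and 2.00-fold (log2 1.00, SE 0.08, edgeR adjusted p = 1.02e-08). DAXX_KO rose from 139.4, 132.7 and 123.0 CPM to 262.3, 272.9 and 268.7 CPM, which is 2.05-fold, and ATRX_KO from 160.7, 139.7 and 141.2 CPM to 251.8, 296.2 and 294.1 CPM, which is 1.89-fold. The interaction was 0.12 in DAXX_KO (edgeR adjusted p = 0.391) and −0.08 in ATRX_KO (edgeR adjusted p = 0.695).

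Against WT, TERF2IP was 1.31-fold lower in DAXX_KO control cells (log2 −0.39, SE 0.06, edgeR adjusted p = 2.56e-05) and was lower with etoposide (log2 −0.27, SE 0.06, edgeR adjusted p = 0.000811). The libraries of these groups did not overlap. In ATRX_KO its values were −0.09 and −0.17, neither past the threshold. The gene KARS1, a lysyl-tRNA synthetase, overlaps exons of TERF2IP on the opposite strand with 1506 to 4616 counts per library. KARS1 was lower in DAXX_KO (−0.61) and ATRX_KO (−0.41) control cells, and rose with etoposide by 0.27 and 0.19 in the WT cells of the DAXX and ATRX series. The strand setting of the authors' counting is not given in the sources used here, and how reads of the overlap were divided was not tested.

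TERF2 (ENSG00000132604, chromosome 16, 69389470 to 69442474, minus strand) was at 77.4, 89.3 and 80.1 CPM in WT control libraries of the DAXX series and 54.7, 46.8 and 58.4 CPM in DAXX_KO. In the ATRX series it was at 81.2, 77.8 and 85.2 CPM in WT and 69.6, 65.4 and 67.1 CPM in ATRX_KO. All KO libraries lay below all WT libraries of their series. TERF2 was 1.54-fold lower in DAXX_KO (log2 −0.62, SE 0.10, edgeR adjusted p = 2.51e-05) and was lower in ATRX_KO (log2 −0.27, SE 0.07, edgeR adjusted p = 0.00629). It was also lower with etoposide, by −0.45 in DAXX_KO (edgeR adjusted p = 0.000539) and −0.39 in ATRX_KO (edgeR adjusted p = 0.00027). All 4 calls held in every alternative and without any single library. The 2 control effects differed by −0.35 (SE 0.12, edgeR adjusted p = 0.028), which was lost with scaling by library totals (−0.23, adjusted p = 0.161) and without DAXX_WT replicate 2 (−0.31, adjusted p = 0.0711), DAXX_KO replicate 2 (−0.27, adjusted p = 0.105) or ATRX_WT replicate 2 (−0.34, adjusted p = 0.0534).

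Etoposide moved TERF2 upward, to 104.8, 100.2 and 94.4 CPM in WT of the ATRX series (log2 0.32, SE 0.07, edgeR adjusted p = 0.000961). In WT of the DAXX series it was at 91.6, 91.8 and 93.4 CPM, above its control libraries, with a log2 fold change of 0.18 (edgeR adjusted p = 0.107). That value passed with at least 10 counts in every library (0.25, adjusted p = 0.0241) and with the compared groups alone (0.21, adjusted p = 0.0116). TERF2 rose by 0.35 in DAXX_KO (edgeR adjusted p = 0.00555) and 0.20 in ATRX_KO (edgeR adjusted p = 0.0301). The first was lost without DAXX_KO etoposide replicate 1 (0.25, adjusted p = 0.0504), and the second with no filter (0.16, adjusted p = 0.229), with the compared groups alone (0.21, adjusted p = 0.0692) and without ATRX_KO control replicate 2 (0.17, adjusted p = 0.102) or 3 (0.19, adjusted p = 0.07) or etoposide replicate 2 (0.21, adjusted p = 0.0505) or 3 (0.18, adjusted p = 0.0889).

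ACD (ENSG00000102977, chromosome 16, 67691415 to 67694713, minus strand) was lower in both knockouts as well. It was at 51.9, 53.1 and 48.7 CPM in WT control libraries of the DAXX series and 33.7, 36.9 and 34.4 CPM in DAXX_KO, and at 59.5, 61.2 and 61.3 CPM in WT and 43.2, 47.9 and 42.8 CPM in ATRX_KO. No KO library reached its WT. The fall was 1.46-fold in DAXX_KO (log2 −0.55, SE 0.11, edgeR adjusted p = 0.000258) and 1.35-fold in ATRX_KO (log2 −0.44, SE 0.08, edgeR adjusted p = 0.000372), and the difference between the 2 effects was −0.11 (edgeR adjusted p = 0.591).

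With etoposide ACD was at 36.1, 36.0 and 28.4 CPM in WT of the DAXX series and 29.0, 27.8 and 21.5 CPM in DAXX_KO. These overlapped in 1 library, and the log2 fold change of −0.37 (SE 0.11, edgeR adjusted p = 0.0105) was lost without WT replicate 1 (−0.31, adjusted p = 0.0581) or 2 (−0.32, adjusted p = 0.0565) or KO replicate 3 (−0.25, adjusted p = 0.0682). In the ATRX series it was at 37.9, 41.2 and 36.2 CPM in WT and 20.96, 19.1 and 21.5 CPM in ATRX_KO, 1.91-fold lower (log2 −0.93, SE 0.09, edgeR adjusted p = 2.28e-07). ACD fell with etoposide by 0.60 and 0.64 on the log2 scale in WT of the DAXX and ATRX series, by 0.42 in DAXX_KO and by 1.13 in ATRX_KO. The fall was larger in ATRX_KO than in its WT (interaction −0.50, SE 0.12, edgeR adjusted p = 0.0102), a call that no left-out library ended, and the knockouts differed with etoposide by 0.54 (SE 0.15, edgeR adjusted p = 0.00488). CARMIL2, an actin regulator on the opposite strand that overlaps exons of ACD, had 2 to 47 counts beside 190 to 774 of ACD, and was lower in DAXX_KO (−3.09) and ATRX_KO (−2.36) control cells.

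TINF2 (ENSG00000092330, chromosome 14, 24707492 to 24711869, minus strand) was higher in the knockouts with etoposide. It was at 20.7, 24.6 and 18.6 CPM in WT and 32.6, 29.8 and 29.5 CPM in DAXX_KO with etoposide, and at 14.4, 15.7 and 13.0 CPM in WT and 21.2, 24.6 and 27.4 CPM in ATRX_KO. KO and WT libraries did not overlap in either series. TINF2 was 1.43-fold higher in DAXX_KO (log2 0.51, SE 0.13, edgeR adjusted p = 0.00304) and 1.67-fold higher in ATRX_KO (log2 0.74, SE 0.12, edgeR adjusted p = 5.97e-05). In control cells the values were 0.30 in DAXX_KO (edgeR adjusted p = 0.0672) and 0.29 in ATRX_KO (edgeR adjusted p = 0.043). The DAXX_KO value passed with library totals (0.48, adjusted p = 0.00537), with the replicate block (0.30, adjusted p = 0.0356) and without DAXX_WT replicate 1 (0.43, adjusted p = 0.0217) or DAXX_KO replicate 3 (0.41, adjusted p = 0.0174). The ATRX_KO call was lost in 5 of 8 alternatives, the replicate block among them (adjusted p = 0.0597), and in 5 of 6 left-out libraries, with adjusted p up to 0.131. Etoposide lowered TINF2 in WT of the ATRX series by 0.64 on the log2 scale (edgeR adjusted p = 0.000142), with values of −0.10, 0.12 and −0.19 in WT of the DAXX series, DAXX_KO and ATRX_KO. The gene GMPR2 overlaps exons of TINF2 on the opposite strand, with 125 to 300 counts per library beside 133 to 366 of TINF2. Against WT with etoposide, GMPR2 was lower in DAXX_KO (−0.35, edgeR adjusted p = 0.0268) and not called in ATRX_KO (0.23). How reads of this overlap were divided was not tested.

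POT1 (ENSG00000128513, chromosome 7, 124462440 to 124570037, minus strand) was at 15.6 to 19.1 CPM in WT control libraries of the DAXX series and 20.4 to 22.7 CPM in DAXX_KO, groups that did not overlap but whose log2 fold change of 0.26 missed the threshold (SE 0.12, edgeR adjusted p = 0.0694). It passed with library totals (0.45, adjusted p = 0.00286). With etoposide POT1 was at 10.6 to 11.7 CPM in WT and 15.3 to 18.0 CPM in DAXX_KO, 1.45-fold higher (log2 0.54, SE 0.13, edgeR adjusted p = 0.00151). ATRX_KO and WT overlapped in both conditions, with values of 0.11 and 0.19. POT1 fell with etoposide by 0.66 in WT of the DAXX series (edgeR adjusted p = 0.000174), by 0.55 in WT of the ATRX series (edgeR adjusted p = 0.0098), by 0.38 in DAXX_KO (edgeR adjusted p = 0.0109) and by 0.46 in ATRX_KO (edgeR adjusted p = 0.0256). The last 3 were each lost in 1 or more settings, with the values −0.42 (adjusted p = 0.0591) in WT of the ATRX series without control replicate 2, −0.34 (adjusted p = 0.0671) in DAXX_KO with DESeq2 and −0.33 (adjusted p = 0.0519) without control replicate 1, and in ATRX_KO −0.39 (adjusted p = 0.0567) with library totals, −0.45 (adjusted p = 0.0538) without control replicate 3 and −0.37 (adjusted p = 0.0929) without etoposide replicate 1. The antisense gene POT1-AS1, which overlaps exons of POT1, had 19 to 130 counts beside 78 to 226 of POT1. Against WT, POT1-AS1 was higher in DAXX_KO in control cells (1.63) and with etoposide (1.18), and was not called in ATRX_KO (−0.56 and −0.47). With etoposide it rose in WT cells (0.71 and 1.06) and in ATRX_KO (1.15), and was not called in DAXX_KO (0.26). How reads of this overlap were divided was not tested.

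TERF1 (ENSG00000147601, chromosome 8, 73921091 to 73960358, plus strand) was at 89.6 to 94.5 CPM in WT control libraries of the DAXX series and 78.2 to 93.7 CPM in DAXX_KO, and at 80.9 to 88.7 CPM in WT and 64.4 to 79.5 CPM in ATRX_KO. The first pair overlapped (log2 −0.05, edgeR adjusted p = 0.656) and the second did not (log2 −0.21, SE 0.09, edgeR adjusted p = 0.0591). That value passed with RLE scaling (adjusted p = 0.0484), in the model of all 24 libraries (adjusted p = 0.037) and without ATRX_KO replicate 2 (−0.29, adjusted p = 0.0244). Etoposide lowered TERF1 to 68.2 to 69.9 CPM in WT of the DAXX series (log2 −0.39, SE 0.08, edgeR adjusted p = 0.000337) and 53.0 to 59.8 CPM in WT of the ATRX series (log2 −0.54, SE 0.09, edgeR adjusted p = 4.8e-05). In DAXX_KO and ATRX_KO the response was −0.18 and −0.09, neither past the threshold. The DAXX_KO value passed with library totals (−0.28, adjusted p = 0.00708) and without control replicate 3 (−0.26, adjusted p = 0.00915) or etoposide replicate 2 (−0.24, adjusted p = 0.0192). Against WT with etoposide, TERF1 in DAXX_KO was at 0.17 (edgeR adjusted p = 0.0929) and passed with library totals (0.24, adjusted p = 0.0212). The interaction was called in ATRX_KO (0.45, SE 0.12, edgeR adjusted p = 0.0202) and was lost without ATRX_WT control replicate 1 (0.41, adjusted p = 0.0641), ATRX_KO control replicate 1 (0.37, adjusted p = 0.0586) or ATRX_KO etoposide replicate 2 (0.43, adjusted p = 0.0504). In DAXX_KO it was 0.21 (edgeR adjusted p = 0.238). Processed pseudogenes of TERF1 exist elsewhere in the genome, and how the counting divided reads among them was not tested.

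RTEL1 (ENSG00000258366, chromosome 20, 62289163 to 62327606, plus strand) was close to the limit of detection, with 2 to 25 counts per library. It had 13, 10 and 5 counts in WT control libraries of the DAXX series and 5, 8 and 17 in DAXX_KO, then 5, 3 and 2 in WT and 10, 12 and 15 in DAXX_KO with etoposide. The last groups did not overlap, and RTEL1 was called higher in DAXX_KO with etoposide (log2 1.68, SE 0.55, edgeR adjusted p = 0.0154), a value that depends on the prior count. It was lost with DESeq2 (adjusted p = 0.0502) and without DAXX_WT replicate 2 (1.57, adjusted p = 0.0572) or 3 (1.47, adjusted p = 0.0644) or DAXX_KO replicate 3 (1.52, adjusted p = 0.0524). In the ATRX series the counts were 12, 15 and 15 in WT and 25, 9 and 16 in ATRX_KO control libraries, and 2, 7 and 5 in WT and 14, 10 and 12 in ATRX_KO with etoposide. RTEL1 fell with etoposide in that WT (−1.34, SE 0.53, edgeR adjusted p = 0.0362), which was lost in 2 alternatives and 4 of 6 left-out libraries, and to −0.99 (adjusted p = 0.144) without WT etoposide replicate 1. In WT of the DAXX series the etoposide response passed only without control replicate 3 (−1.52, adjusted p = 0.0415). The other RTEL1 values did not pass, and at this depth smaller differences were not detectable. The read-through gene RTEL1-TNFRSF6B shares exons with RTEL1 and had 0 to 6 counts.

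The WT control libraries of the 2 series were made from the same kind of cell, and 0 of 10 genes differed between them (edgeR, 13.2% of all genes). At an unadjusted p under 0.05 there was 1, ACD (−0.24, edgeR adjusted p = 0.0915), and DESeq2 called 0. Series and batch cannot be told apart here. The knockout effects of DAXX_KO and ATRX_KO on control cells differed for 5 of 10 genes (34.1% of all genes), namely TERT, TERC, DKC1, TERF2 and TERF2IP, and with etoposide for 2 of 10 (34.5%), DKC1 (−0.25, SE 0.10, edgeR adjusted p = 0.0486) and ACD. The TERF2IP difference of −0.30 (edgeR adjusted p = 0.0177) was lost with library totals (−0.18, adjusted p = 0.188) and without DAXX_KO replicate 3 (−0.25, adjusted p = 0.0602) or ATRX_KO replicate 1 (−0.24, adjusted p = 0.0543). The DKC1 difference with etoposide was lost in 4 of 7 alternatives and 9 of 12 left-out libraries.

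Scaling by library totals moved the median of all genes in DAXX_KO control cells by 0.19 on the log2 scale. The share of called genes that were higher went from 50.1% to 66.2%, and among the 10 genes 3 were then higher and 5 lower, with POT1 and TINF2 added. TERT, DKC1, TERF2, TERF2IP and ACD stayed lower under this scaling. With etoposide it took the genes that differed between DAXX_KO and WT from 8 to 10, adding DKC1 and TERF1. It also moved the share of higher calls from 59.1% to 36.9% in the DAXX_KO interaction, from 49.7% to 62.7% in the difference between the knockouts in control cells, from 50.1% to 60.2% in ATRX_KO with etoposide and from 45.4% to 29.3% between the WT control groups.

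Across the 24 libraries, the levels of the 10 genes varied together in part, which is given as a description because the points share groups and treatment. On log2 CPM, the Pearson correlation was 0.88 between TERT and DKC1, 0.81 between TERT and ACD, −0.88 between DKC1 and TERF2IP and −0.74 between TERF2 and POT1. Of all genes tested in both series, the one most like TERT in this measure was RANBP3 (0.95), the one most like TERC was FPGS (0.93), the one most like DKC1 was DIAPH1 (0.99) and the one most like TERF2IP was TRIM25 (0.99). For ACD it was GINS2 (0.95), for TERF2 PPP1R14C (0.94), for TERF1 ARPC5 (0.93), for POT1 WAC (0.92), for TINF2 ACACB (0.92) and for RTEL1 VEZT (0.87).

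Around these 10 genes stand 69 further telomere genes in 4 lists, of which 67 were tested. In DAXX_KO control cells 34 were called (53.4% of all genes), 5 higher and 29 lower, with a median of −0.31 beside 0.02 for all genes. In ATRX_KO 31 were called (41.8% of all genes), 10 higher and 21 lower, with a median of −0.07. With etoposide 15 rose and 35 fell in the WT cells of both series (60.2% and 61.5% of all genes called), with medians of −0.36 and −0.32. The number called in control cells was thus near that of all genes, and the same shares stand beside the counts of each list.

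Of the 16 tested genes that assemble telomerase or mature TERC, 11 were lower and 0 higher in DAXX_KO control cells, with a median of −0.48, and 6 were lower and 2 higher in ATRX_KO, beside 53.4% and 41.8% of all genes called in either direction. WRAP53, which takes telomerase to Cajal bodies, was lower in both (−1.25 in DAXX_KO and −1.56 in ATRX_KO), as was NVL, an ATPase that binds TERT (−1.32 and −0.74). RUVBL1, RUVBL2 and PTGES3 were also lower in both. PARN, a deadenylase that trims the TERC end, was higher in ATRX_KO by 0.32, and GAR1, a protein of the mature particle, by 0.27. NOP10, which sits beside DKC1 in the particle, had an etoposide response above that of WT by 0.57 in DAXX_KO, and RUVBL2 by 0.42. In ATRX_KO the interaction was called for TOE1 (0.58), PTGES3 (0.39) and NHP2 (−0.42). It was also called there for NOP10 (0.38), a value added after it was seen. These are 2 of 16 genes in DAXX_KO and 4 of 16 in ATRX_KO, beside 14.2% and 16.0% of all genes.

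Of the 25 genes of telomere end replication and processing, 2 were higher and 12 lower in DAXX_KO and 3 higher and 9 lower in ATRX_KO control cells, shares near the 53.4% and 41.8% of all genes. XRCC6 (Ku70, −1.16) and PRIM2, a primase subunit (−0.97), fell most in DAXX_KO, while TEN1, of the CST complex, was higher (0.59), as was SAMHD1 (0.27). In ATRX_KO, RPA1 (−0.86) and POLA2 (−0.79) fell most, and MRE11, a nuclease (0.61), and the helicase PIF1 (0.52) were higher. Etoposide lowered 17 of the 25 and raised 4 in the WT cells of each series, beside 60.2% and 61.5% of all genes called. Interactions were called in DAXX_KO for XRCC5 (0.67) and RPA1 (0.47) and in ATRX_KO for RIF1 (0.62), RPA1 (0.52), PIF1 (−0.82) and RAD50 (−0.52), among 3 and 5 called in this list (14.2% and 16.0% of all genes).

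Of the 14 tested genes of telomeric chromatin and ALT, 1 was higher and 4 lower in DAXX_KO and 1 higher and 2 lower in ATRX_KO control cells, smaller shares than the 53.4% and 41.8% of all genes, and none was shared in direction. ZNF827, a zinc finger protein found at ALT telomeres, was higher in DAXX_KO (0.72) and lower in ATRX_KO (−0.40). ZBTB48 (TZAP, −1.10) and FANCM (−0.77) were lower in DAXX_KO, and PML, of the nuclear bodies where ALT telomeres gather, was lower (−0.55) and SLX4IP higher (0.62) in ATRX_KO. Interactions were called for SMARCAL1 (−0.60) and PML (−0.59) in DAXX_KO and RAD51AP1 (0.84) and SMCHD1 (0.45) in ATRX_KO.

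Of the 12 tested transcription factors reported to act on TERT, 2 were higher and 2 lower in DAXX_KO and 4 higher and 4 lower in ATRX_KO control cells, beside 53.4% and 41.8% of all genes. MEN1 was higher and SP3 lower in both. E2F1 was higher (0.54) and ETS1 lower (−0.99) in DAXX_KO, and the MYC antagonists MXI1 (1.41) and MXD1 (0.52) were higher and GABPA lower (−0.84) in ATRX_KO. E2F1 (0.66) in DAXX_KO, and SP1 (0.56) and MXI1 (−1.04) in ATRX_KO, had interactions past the threshold. MYC, named here after its values were seen, fell with etoposide by 2.58 on the log2 scale in WT of the DAXX series and by 2.55 in DAXX_KO, and by 2.25 in WT of the ATRX series and 1.67 in ATRX_KO. Against WT in control cells, MYC was not called in DAXX_KO (−0.21, edgeR adjusted p = 0.521), where TERT was lower, or in ATRX_KO (0.27, edgeR adjusted p = 0.457). Its part in the TERT values was not tested.

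**Figure D4:**
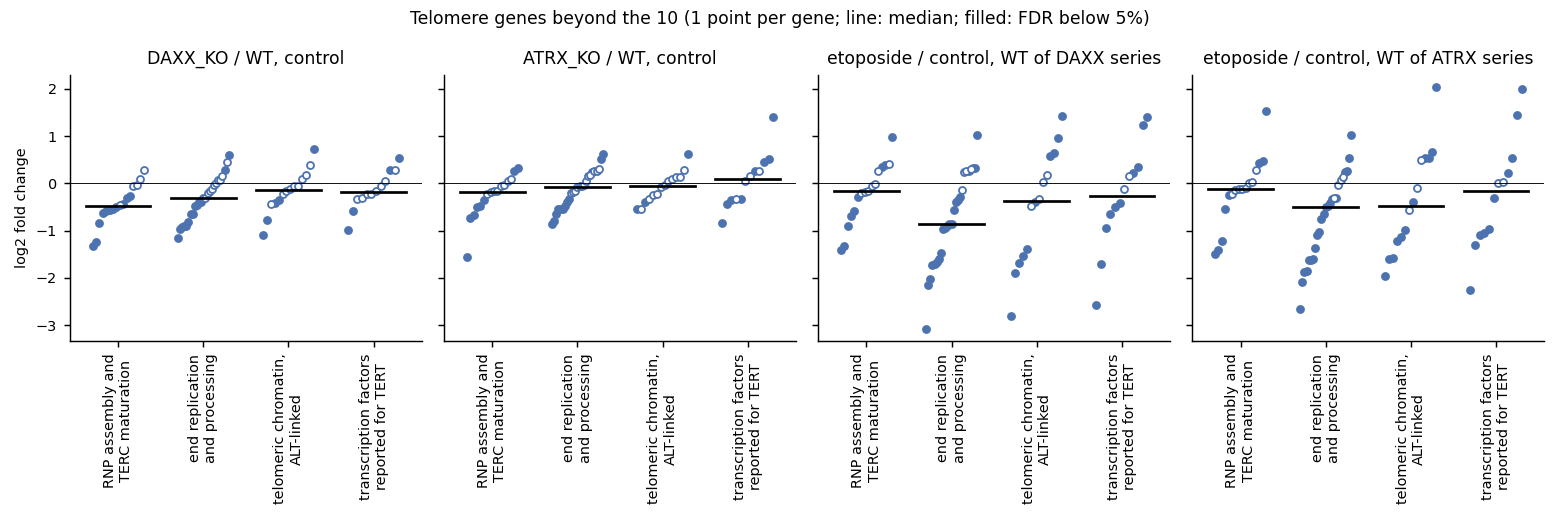
Log2 fold change (y axis) of each tested gene (1 point per gene, filled for an FDR below 5%) in the 4 wider lists (x axis), with the median as a line, for KO against WT in control cells and for etoposide against control in the WT cells. In DAXX_KO the list of telomerase assembly genes has 11 filled points below 0 and none above, with a median of −0.48, against 6 below and 2 above in ATRX_KO.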

How the data were processed

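RNA-seq was taken for 24 libraries, 3 per group, grouped by their titles. The authors prepared QuantSeq 3′ mRNA libraries, aligned the reads with STAR to hg19 and estimated counts per gene with RSEM (version 1.2.3 in the submitters' processing notes, where the paper's methods give another), and the deposited expected counts are whole numbers with no normalization. Symbols were matched to GENCODE release 44 (lifted to GRCh37) for 55501 of the 57736 IDs, with 98.8% of the counts.

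Counts were fitted with edgeR 4.0.16 in R 4.3.3, with TMM factors of 0.939 to 1.10 (DAXX series) or 0.954 to 1.07 (ATRX series) and genes kept by filterByExpr (minimum count 10, minimum total 15). The 12 libraries of a series entered 1 quasi-likelihood model of 4 groups (15247 and 16371 genes), and comparisons between the series a model of all 24 libraries (16674 genes). P-values were adjusted by Benjamini-Hochberg over all genes tested, at an FDR of 5%. The spread (biological coefficient of variation) was 0.0825 and 0.106. Replicates differed by more than counting noise, with a chi-square per degree of freedom of 2.16 to 17.1 over 24 pairs. BCYRN1, a short RNA with an internal A-rich stretch, took 3.08% to 12.1% of the counts, and strand use in counting is not given in the sources used here. The reads carry no molecular identifiers, so counting limits cover counting error only.

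The members, the wider lists and the comparisons were chosen with earlier results of these data known, and no p is given over a list. The genes named from the wider lists are, per series, the 2 highest and 2 lowest called values in control cells and in the interaction, and genes called in the same direction in both knockouts where these were 5 or fewer. For each member the most similar gene by Pearson correlation was named. Promoters came from RefSeq (GRCh38.p14), and their coordinates are not on the build of the counts. Alternatives were RLE size factors, library totals, no filter, at least 10 counts in every library, a replicate block, DESeq2 1.42.0, all libraries in 1 model, only the groups compared, leaving out each library, and, chosen after seeing the data, centring on neighbouring genes. Plots were made in Python 3.11.15 (matplotlib 3.10.9). The model was tested on simulated data. The other assays of the study were not used here.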

Additional observations from a re-analysis of the deposited data

Results flagged for a closer look

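Each result here is a difference between 2 effects that passed its own test (edgeR quasi-likelihood test, Benjamini-Hochberg adjustment over all genes). The response to etoposide in KO minus that in WT of the same series was 0.62 for DKC1 in DAXX_KO (adjusted p = 0.000129), and in ATRX_KO it was 0.39 for DKC1 (adjusted p = 0.0226), 0.45 for TERF1 (adjusted p = 0.0202) and −0.50 for ACD (adjusted p = 0.0102).

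The knockout effect in DAXX_KO minus that in ATRX_KO, in control cells, was −1.25 for TERT (adjusted p = 0.00923), 1.06 for TERC (adjusted p = 0.0409), −0.46 for DKC1 (adjusted p = 4e-04), −0.35 for TERF2 (adjusted p = 0.028) and −0.30 for TERF2IP (adjusted p = 0.0177). With etoposide it was −0.25 for DKC1 (adjusted p = 0.0486) and 0.54 for ACD (adjusted p = 0.00488). Groups of 3 libraries are too small for a test of single outlying libraries.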

How the results depend on the processing

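The 63 called values of the 10 genes kept their direction in every alternative run and every left-out library. Of the 491 values they took in alternatives that kept all libraries, 464 kept the call and 27 lost it, and of 444 with a library left out, 382 kept it and 62 lost it. The falls of TERT, DKC1 and ACD and the rise of TERF2IP with etoposide, and the lower TERF2 and ACD of both knockouts in control cells, were called throughout. In the counts of the 10 genes, the DAXX_KO interaction went from 1 to 2 with no filter, and over left-out libraries from 1 to 2 (2 without DAXX_KO control replicate 3). DAXX_KO against WT with etoposide had 5 to 8 of 8 (5 without WT etoposide replicate 2), the etoposide response of ATRX_KO 4 to 7 of 7 (4 without ATRX_KO control replicate 3), and the wider lists in the ATRX_KO interaction 8 to 16 against 13 (8 without ATRX_WT control replicate 1). The difference between the knockouts in control cells went from 5 to 3 with library totals and was 3 to 5 over left-out libraries (3 without DAXX_KO control replicate 3 or ATRX_WT control replicate 2). With etoposide it went from 2 to 1 with library totals and with the replicate block, and was 1 to 3 over left-out libraries. Between the WT control groups the count went from 0 to 1 (ACD) with library totals, the replicate block and the compared groups alone, and stayed at 0 over left-out libraries. The causes were not tested.

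Replicate numbers did not pair the libraries. Same-numbered libraries of a series had deviations that correlated from −0.288 to 0.06 over 36 pairs, and different numbers from −0.25 to 0.272. With a replicate block, 121 of 130 values kept their call, 7 lost it and 2 gained it. Those that lost it were TINF2 in ATRX_KO control cells, TERC and TERF1 in ATRX_KO against WT with etoposide, the RTEL1 response in ATRX-series WT, TERC with etoposide in ATRX_KO, and the differences between the knockouts for TERC in control cells and DKC1 with etoposide. Counts per library were low for RTEL1 (2 to 25), TERC (38 to 179) and TERT (29 to 543). Centring on neighbouring genes, chosen after seeing the data, moved 39 of the 130 values.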
